A study of Homo sapiens with 2 samples.

Results

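YAP1 and WWTR1 (the gene of TAZ) are transcriptional co-activators, and with the DNA-binding factor TEAD1 they are set here against 7 genes widely used as readouts of their activity: CCN1, CCN2, ANKRD1, AMOTL1, AMOTL2, FJX1 and AXL. These 10 genes were taken from 19775 genes that have a probe set with 1 gene symbol on the array, by exact match of the symbol, and every one of their 21 probe sets is described. The genes were chosen with ratios from these same arrays already known, so all values below are descriptions and no test was made.

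The treated cells were U251 glioma cells, a human cell line, transfected with miR-31 (spelled has-miR-31 in the labels), a microRNA. Their sample title reads U251 miR-31 overexpression. The other cells were U251 cells whose label for miR-31 transfection reads control. Both were grown in DMEM with fetal bovine serum, and the series asks which genes miR-31 regulates in this line. Total RNA was read on Affymetrix HG-U133 Plus 2 arrays, with 1 array of miR-31 cells and 1 array of control cells. The kind of construct, the time between transfection and harvest, and whether clones or pools were used are not given in the labels. No spread between replicates exists, and the number of arrays limits the precision of every value. The probe sets used do not read mature miR-31.

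In the Hippo pathway a cascade of kinases, ending in LATS1 and LATS2, phosphorylates YAP and TAZ and keeps them out of the nucleus. When the cascade is off, as in spread or stretched cells, YAP and TAZ enter the nucleus, bind TEAD factors and switch on genes for matrix-associated proteins, cytoskeletal regulators and their own inhibitors. The activity of YAP and TAZ is set largely by phosphorylation and location, which an RNA array does not read. In glioma, YAP and TAZ are known for promoting growth and a mesenchymal state.

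The sequence of mature miR-31 is shown because miR-31 was the treatment. It is the 5p form that RefSeq lists for MIR31 (GRCh38.p14, chr9:21512158-21512178, minus strand), and the labels do not name the arm. The capitals mark the seed, bases 2 to 8, with which a microRNA pairs to its targets.
hsa-miR-31-5p: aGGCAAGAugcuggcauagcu

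The upstream sequences of CCN2 and ANKRD1 are shown because TEAD factors are known to bind both promoters and the 2 genes were lower in the miR-31 array. Each is the 250 bases before the transcript start in RefSeq (GRCh38.p14), 5′ to 3′ on the gene's strand, at chr6:131951373-131951622 (minus strand) for CCN2 and chr10:90921088-90921337 (minus strand) for ANKRD1. The capitals mark the letters GGAATG, the core of the TEAD element, searched on both strands (CATTCC on the other).
CCN2: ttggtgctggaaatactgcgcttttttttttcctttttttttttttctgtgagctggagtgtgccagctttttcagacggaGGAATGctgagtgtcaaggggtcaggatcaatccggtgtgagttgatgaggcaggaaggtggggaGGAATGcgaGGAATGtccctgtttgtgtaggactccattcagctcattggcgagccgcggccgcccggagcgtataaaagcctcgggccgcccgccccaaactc
ANKRD1: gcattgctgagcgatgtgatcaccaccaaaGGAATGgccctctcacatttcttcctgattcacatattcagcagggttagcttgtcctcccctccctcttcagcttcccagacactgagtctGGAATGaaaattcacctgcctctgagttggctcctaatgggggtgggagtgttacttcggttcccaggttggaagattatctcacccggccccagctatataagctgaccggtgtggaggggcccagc

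The CCN2 window held 3 such matches, starting 169, 104 and 95 bases before the start. The ANKRD1 window held 2, starting 220 and 128 bases before the start. Of 35116 RefSeq windows of the same length, 11.9% held at least 1 match, 0.94% at least 2 and 0.0826% at least 3. Windows were at hand for 8 of the 10 genes, 11 windows in all, some genes having several starts. CCN1 and TEAD1 had no window and were not searched. AMOTL2 had 1 match at one of its starts, 69 bases upstream, AXL had 1 at one of its starts, 212 bases upstream, and the regulator YAP1 had 1, 162 bases upstream. The windows of WWTR1, AMOTL1 and FJX1 did not hold these letters. The AP-1 element TGANTCA, which reads the same on both strands, occurred once, 195 bases before the ANKRD1 start, apart from both TEAD matches, and 6.57% of all windows held it. The CArG box, the element of serum response factor, occurred in none of the 11 windows, against 1.16% of all windows. For so rare a string, its absence from so few windows says little. A match is a string of letters and was not tested as a binding site.

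**Figure D1:**
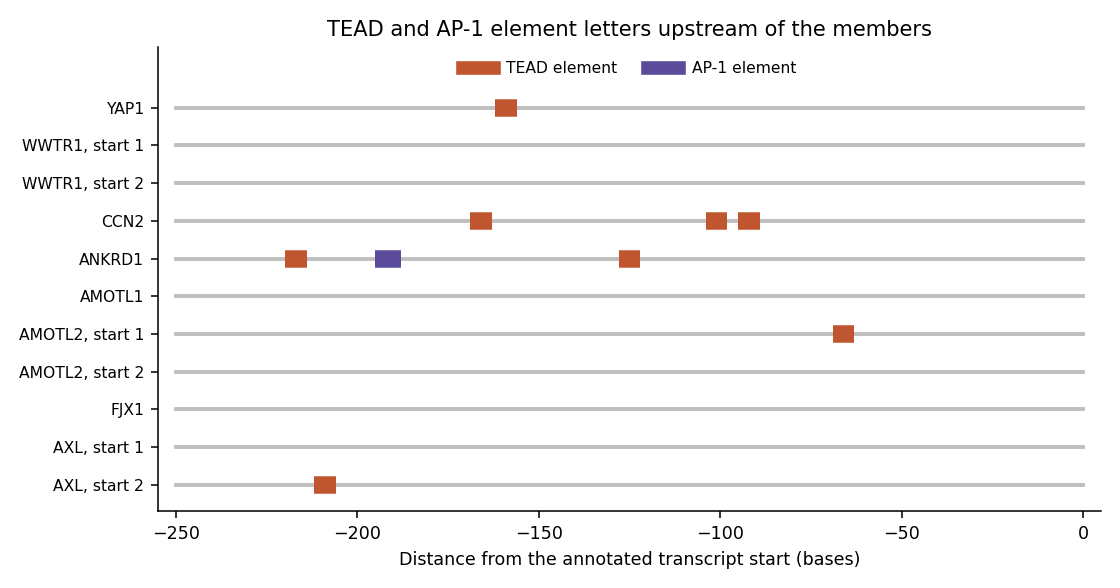
Positions of TEAD element letters (orange) and AP-1 element letters (purple) in the 250 bases before each RefSeq transcript start of the members (grey lines). The horizontal axis is the distance from the start in bases, and several starts of a gene are numbered by coordinate. CCN2 holds 3 TEAD matches and ANKRD1 holds 2 TEAD matches and 1 AP-1 match.

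The outputs other than AXL were lower in the miR-31 array. On brightest probe sets the co-activators YAP1 and WWTR1 lay near the control level. TEAD1, with a log2 ratio of -0.40, stood lower than AXL at -0.32, so regulators and outputs overlapped. On the brightest probe set of each gene, all 7 outputs had log2 ratios below 0, with a median of -0.89, and 3 of 7 were at least 2-fold lower. On the deposited scale the 3 regulators had a median of -0.03, and none reached 1.5-fold in either direction. Each ratio is the value of the miR-31 array less that of the control in log2(intensity + 16), a scale on which changes of dim genes look smaller. Among all 11792 genes compared, the median was 0.03, 46.8% were below 0 and 1.58% were at least 2-fold lower. The 10 genes passed the level filter (a mean intensity of at least 62.6, the median of all probe sets), as did all 21 of their probe sets.

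At 1.5-fold, 6 of the 7 outputs were lower, against 6.72% of all genes. Since the genes were picked with this contrast known, these counts say what the members are and carry no weight beyond that. Of the 10 genes, 8 were among the 2948 brightest genes, where ratios scatter less. In those 2948 the median ratio was -0.05, 56.9% were below 0, 1.19% lay at 2-fold lower or beyond, and 5.56% at 1.5-fold lower or beyond. The RNA is that of a whole culture, so fewer cells that express a gene and less of its RNA per cell cannot be told apart.

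How far probe sets of one gene disagree gives a rough scale for these ratios. Among genes with 2 probe sets above the filter, the SD of a single probe set's ratio was 0.336 over 3142 genes, and 0.264 over the 802 whose brighter probe set was at least as bright as the 2948 brightest genes. Differences between cultures are not part of this SD.

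**Figure D2:**
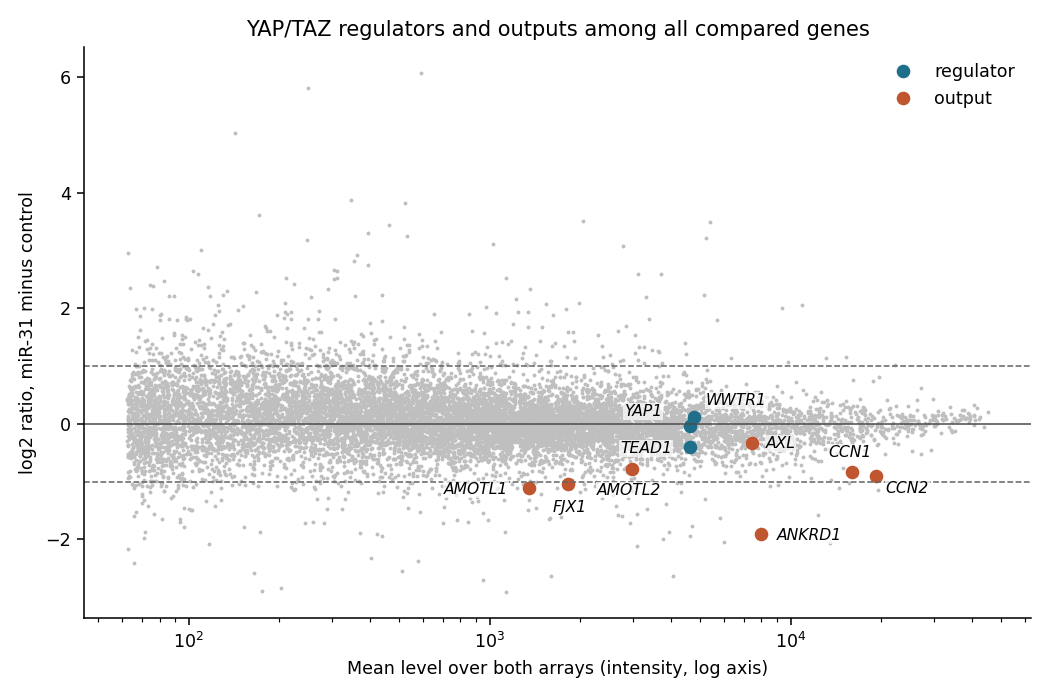
Each grey point is 1 of 11792 genes, with its mean level over both arrays (log axis) against its log2 ratio, miR-31 minus control. Regulators (blue) lie between -0.40 and 0.13 and outputs (orange) between -1.91 and -0.32, with dashed lines at 2-fold.

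Among the regulators, YAP1 had an intensity of 4577 in the miR-31 array and 4676 in the control array on its brightest probe set (224894_at), a log2 ratio of -0.03. The second (224895_at) had 2031 in miR-31 and 1977 in control cells (0.04), and the third (213342_at) had 1319 in miR-31 and 1785 in control cells (-0.43). The first 2 probe sets thus place YAP1 within 3% of the control level, while the third reads lower.

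WWTR1, which encodes the YAP paralogue TAZ, had 4997 in the miR-31 array and 4575 in the control array on its brightest probe set (202133_at), a ratio of 0.13. Its other probe sets pointed in opposite directions: 202132_at had 1416 in miR-31 and 980 in control cells (0.52), and 202134_s_at had 278 in miR-31 and 395 in control cells (-0.49). The span of 1.01 log2 units was the widest of the 10 genes, so the array gives no single direction for WWTR1.

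TEAD1, the factor that carries YAP and TAZ to DNA, had 4028 in the miR-31 array and 5338 in the control array on 224955_at, a ratio of -0.40. A second probe set, 214600_at, had 417 in miR-31 and 527 in control cells (-0.33), and the dimmest, 1553322_s_at, had 120 in miR-31 and 111 in control cells (0.10). TEAD1 had the lowest ratio of the regulators on brightest probe sets, and it was lower on 2 of its 3 probe sets. Over the 9 regulator probe sets, 5 were lower and 4 higher, none past 1.5-fold, while 46.8% of all genes were lower on their brightest probe set.

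Among the outputs, ANKRD1 stood lowest. It encodes a cardiac ankyrin repeat protein that acts in the nucleus and at the sarcomere, and it is among the most used readouts of YAP. Its only probe set (206029_at) had 4106 in the miR-31 array and 15495 in the control array, which is 26.5% of the control level and a log2 ratio of -1.91. Its rank was 21 from the lowest of 11792 genes.

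CCN1 and CCN2, which encode the secreted matricellular proteins CYR61 and CTGF, had nearly the same ratio. CCN1 had 11941 in the miR-31 array and 21299 in the control array on 201289_at (-0.83), and its other probe set, 210764_s_at, had 5247 in miR-31 and 9815 in control cells (-0.90). CCN2 had 14113 in the miR-31 array and 26227 in the control array on 209101_at (-0.89). In miR-31 cells CCN1 was at 56.1% and CCN2 at 53.8% of its control level, short of 2-fold, and the 2 probe sets of CCN1 differed by 0.07 log2 units.

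AMOTL1 and AMOTL2 encode angiomotin-like proteins, which sit at cell junctions, bind YAP and hold it in the cytoplasm, so that they are both outputs and inhibitors. AMOTL1 had 917 in the miR-31 array and 1992 in the control array on its brightest probe set, 225450_at (-1.11). Its others were all lower as well, with 136 in miR-31 and 382 in control cells on 228840_at (-1.39), 164 in miR-31 and 234 in control cells on 225459_at (-0.48), and 60.3 in miR-31 and 87.5 in control cells on 235277_at (-0.44). The brightest 3 were lower and above the filter level in both arrays, and 2 of them reached 2-fold, while 235277_at was below that level in the miR-31 array and adds nothing to the direction. AMOTL2 had 2266 in the miR-31 array and 3914 in the control array on its only probe set, 203002_at (-0.78).

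FJX1, the human relative of the fly Hippo pathway gene four-jointed, had 1262 in the miR-31 array and 2621 in the control array on 219522_at, a ratio of -1.04 and 48.2% of the control level. It lies just past 2-fold, and CCN2 is the next gene short of it.

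AXL, a receptor tyrosine kinase for the ligand GAS6, departed from the other outputs. It had 6652 in the miR-31 array and 8313 in the control array on its brightest probe set, 202686_s_at (-0.32), while the other, 202685_s_at, had 382 in miR-31 and 262 in control cells (0.52). The direction of AXL therefore depends on the probe set, and the mean of both was 0.10. AXL was the only output on whose brightest probe set the ratio lay within the range of the regulators. The other 6 had -0.78 or lower, below TEAD1 at -0.40.

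Over the 12 output probe sets, 11 were lower, 8 by at least 1.5-fold and 4 by at least 2-fold, with a median of -0.86. For scale, 46.8% of all genes were lower on their brightest probe set. The 12 come from 7 genes, with 4 from AMOTL1, so they are not separate observations. The 11 include 235277_at of AMOTL1, which passed the filter only through its control value, so its direction was favoured by the filter. Of the 22483 probe sets with 1 gene symbol above the filter, 6.72% lay at 1.5-fold lower or beyond, and 1.67% at 2-fold lower or beyond. The regulator probe sets had a median of -0.03, with a range from -0.49 to 0.52.

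Ranked from the lowest ratio among the 11792 genes, AMOTL1 stood at 127, FJX1 at 160, CCN2 at 276, CCN1 at 338 and AMOTL2 at 401. Together with ANKRD1 these 6 outputs lay among the lowest 3.40%. AXL ranked 2114, TEAD1 1523, YAP1 5132 and WWTR1 7000, so that TEAD1 stood lower than AXL and the co-activators stood in the middle of all genes. The ranks describe these 2 arrays, on the values by which the genes were chosen.

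**Figure D3:**
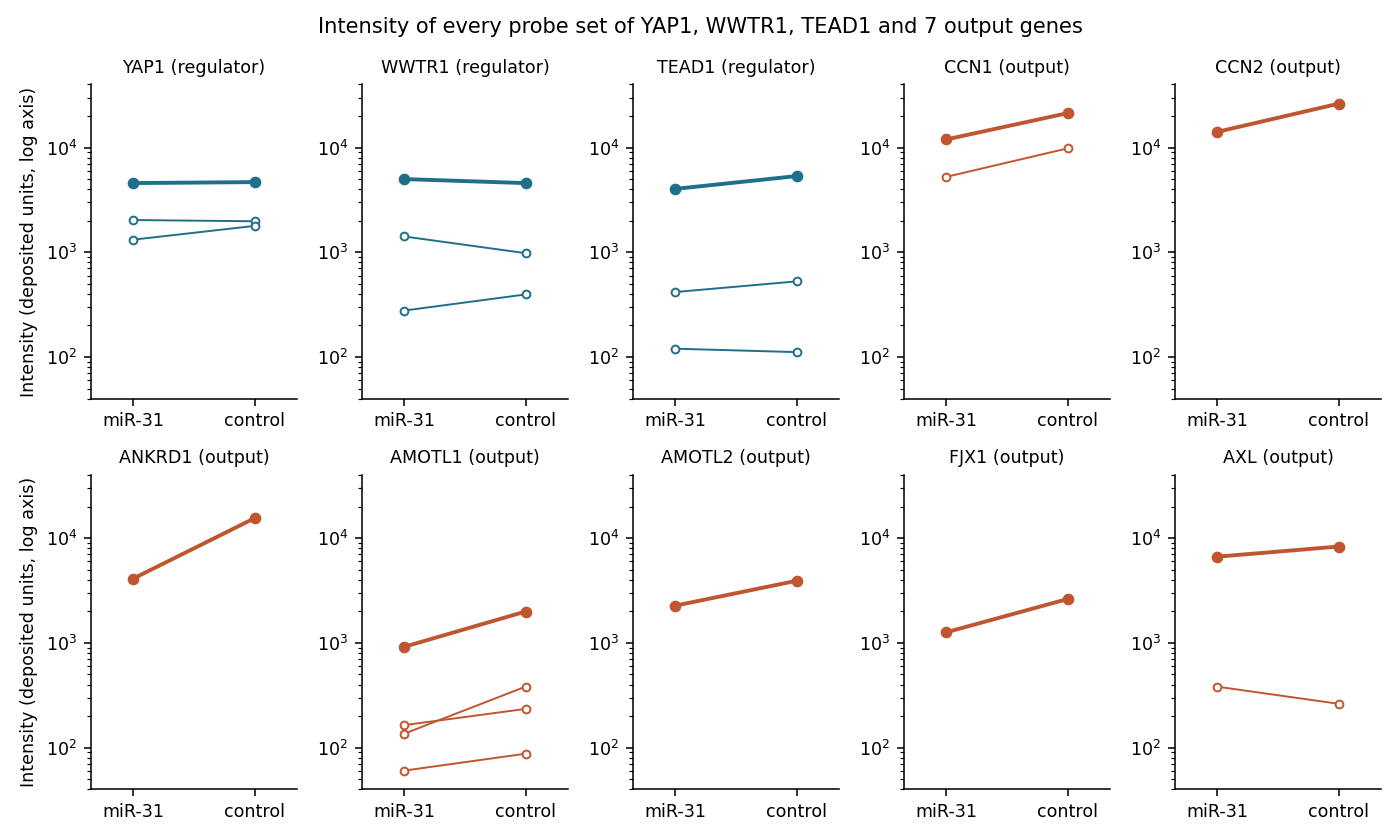
Intensity (log axis) of every probe set of the 10 genes in the miR-31 array (left point) and the control array (right point); filled symbols mark the brightest probe set of a gene, blue regulators and orange outputs. Lines climb toward the control for every output probe set except 1 of AXL, and run in both directions for the regulators.

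**Figure D4:**
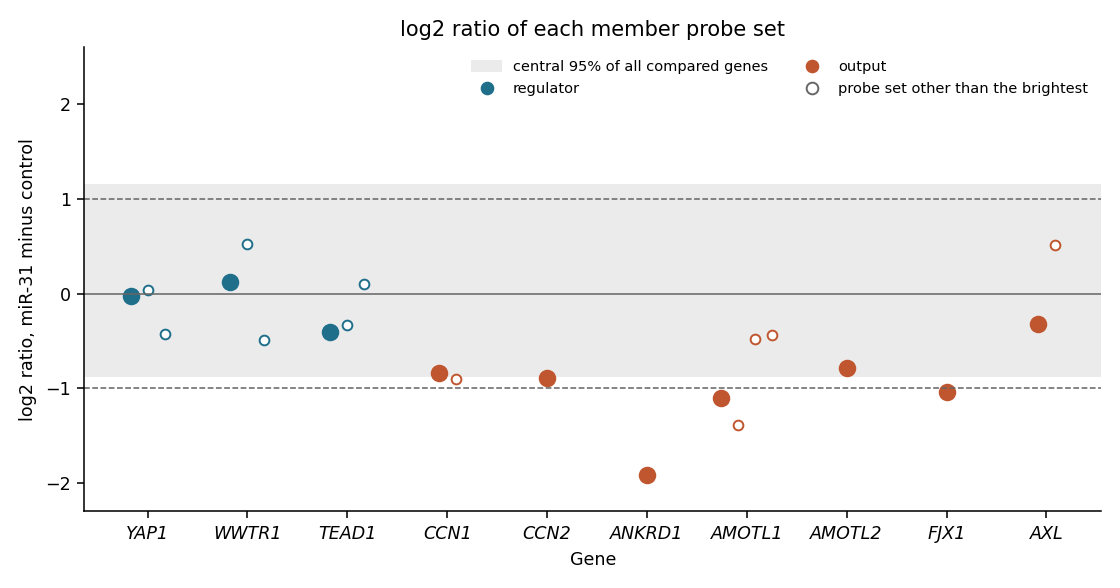
log2 ratio (miR-31 minus control) of each of the 21 probe sets by gene; large filled points are the brightest probe sets, the grey band holds the central 95% of all compared genes (-0.87 to 1.15) and dashed lines mark 2-fold. ANKRD1 lies lowest at -1.91, and the regulators lie between -0.49 and 0.52.

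On brightest probe sets the direction of all 7 outputs was the same under every scaling tried, and that of 2 regulators was not. Quantile normalization and removal of a level trend turned YAP1 to slightly above 0, and centring on the hybridisation or poly-A controls placed WWTR1 below 0. Centred on the poly-A controls, YAP1 had -0.58, WWTR1 -0.42 and TEAD1 -0.96, with TEAD1 past 1.5-fold. Both spike-in classes read higher in miR-31 cells, by a median of 0.19 (18 hybridisation probe sets) and 0.55 (24 poly-A probe sets). The gap between the medians of regulators and outputs, 0.86, does not move with such a shift, and it lay between 0.73 and 0.94 over the alternatives.

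Other genes reported as YAP and TAZ outputs were mostly lower on their brightest probe sets, and by less. Of 20 on the list, 17 had a probe set with 1 symbol and 16 passed the level filter. Of these 13 were lower and 3 higher, with a median of -0.27, while 46.8% of all genes and 56.9% of the 2948 brightest were lower. The list was chosen with earlier results of these data known, so its counts describe these genes only. Past 2-fold were 3 lower genes and 0 higher ones, against 1.58% and 3.74% of all genes. EDN1, the vasoconstrictor peptide endothelin-1, had 187 in the miR-31 array and 549 in the control array (-1.48, with -2.45 on another probe set). NT5E, the ectonucleotidase CD73, had 580 in miR-31 and 1422 in control cells (-1.27), and its 4 probe sets lay between -1.75 and -1.04. DOCK5, an activator of RAC, had 2104 in miR-31 and 4475 in control cells (-1.08), with 5 probe sets above the filter from -1.08 to 0.03. The list also held genes that were not lower, and the highest was IGFBP3, an IGF-binding protein, at 0.998 and just short of 2-fold. Some genes lower on their brightest probe set read higher on others. The 5 probe sets of ASAP1 ran from -0.21 to 0.42, and the 7 of THBS1 from -0.56 to 0.98. With the probe sets of each gene averaged, the list median was -0.16.

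Kinases, adaptors and upstream genes of the Hippo pathway were less than 2-fold from the control on their brightest probe sets. Of 26 listed, 24 passed the filter, 15 lower and 9 higher, with a median of -0.19 and none past 2-fold. For scale, 46.8% of all genes and 56.9% of the 2948 brightest were lower. MAP4K4, a kinase upstream of LATS, had 2476 in the miR-31 array and 3794 in the control array (-0.61, and 5 probe sets between -0.63 and -0.33). WWC3, a scaffold of the KIBRA family, had -0.51 and, on another probe set, -0.93, and FAT4, a giant cadherin, had the highest ratio at 0.44.

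LATS2, the kinase that phosphorylates YAP and a reported target of miR-31, had 1191 in the miR-31 array and 1699 in the control array (-0.51). Its 3 probe sets above the filter lay between -0.51 and -0.13, while a dim one read 69.9 in miR-31 and 14.1 in control cells (1.51). LATS1, its paralogue, had -0.20.

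The remaining TEAD factors and their VGLL cofactors, 6 of 7 above the filter, had a median of -0.03. That median was 0.06 without _s_at and _x_at probe sets and -0.27 over the 2 genes left by a stricter filter. TEAD4 had -0.51 (-0.78 on another probe set), TEAD3 -0.44 and TEAD2 0.16. VGLL3, at 0.35, was dim in both arrays and passed the filter only through its miR-31 value. Relatives and ligands of the outputs were not lower as a group. Of 11 listed, 5 passed the filter, 4 higher and 1 lower, with a median of 0.82 and none past 2-fold. The median of these relatives depended on the setting: it was 0.22 over all 11 without a level filter, 0.45 over the 3 left by the stricter filter and 0.27 when centred on the poly-A controls. GAS6, the ligand of AXL, had 1226 in the miR-31 array and 689 in the control array (0.82, with 1.37 on another probe set), and MERTK, a receptor of the AXL family, had 152 in miR-31 and 72.6 in control cells (0.93). AMOT, the third angiomotin, had 108 in miR-31 and 52.4 in control cells (0.86), and it passed the filter only through its miR-31 value, so its direction was favoured by the filter. PROS1, a ligand of MERTK, had 649 in miR-31 and 472 in control cells (0.45). CCN3 (-0.86), CCN4 (-0.71), CCN5 (0.22) and CCN6 (-1.01) were all below the filter.

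**Figure D5:**
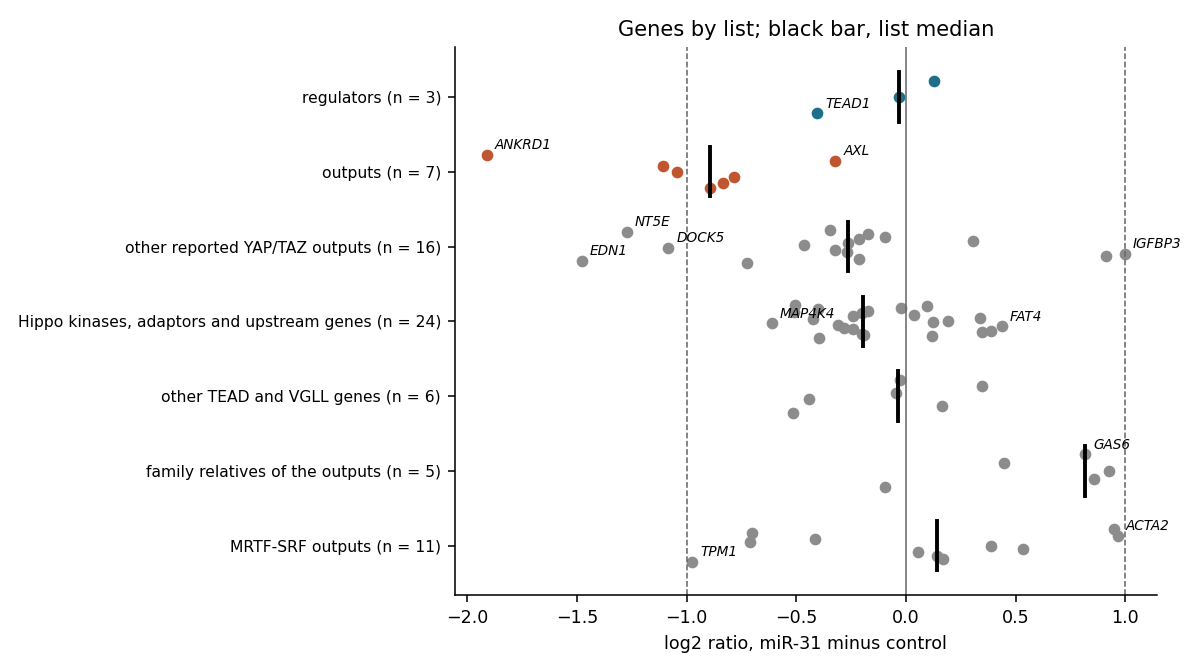
log2 ratio (miR-31 minus control) of genes above the level filter, 1 point a gene on its brightest probe set, by list, with a black bar at the list median and dashed lines at 2-fold. The 7 outputs have a median of -0.89 and the list of other reported outputs -0.27, while regulators have -0.03.

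The arrays came on a common scale: the mean intensity, trimmed of 2 percent of probe sets at each end, was 500.1 on both. Of 8 astroglial markers 6 passed the filter, 3 lower and 3 higher, with NES at -0.91 (0.03 on another probe set), FABP7 at -0.52, SLC1A3 at -0.22, VIM at 0.19, SOX2 at 0.39 and GFAP at 0.85, while S100B and AQP4 did not pass. The summed level of all 8 was 79762 in the miR-31 array and 82671 in the control array. Of 6 endothelial markers 2 passed, KDR (-0.90) and PECAM1 (0.03). The sum over these 2 was 405 in miR-31 and 660.4 in control cells, and over all 6 it was 491 in miR-31 and 765 in control cells. Of 7 fibroblast and mural markers 3 passed, with COL1A2 at 0.77, COL1A1 at -0.62 and RGS5 at 0.16. Their sum was 22193 in miR-31 and 14079 in control cells, nearly all of it COL1A2, with 21028 in miR-31 and 12349 in control cells. Over all 7 the sum was 22287 in miR-31 and 14340 in control cells. Below the filter, PDGFRB had 7.57 in miR-31 and 118 in control cells (-2.50), COL3A1 had -1.67, LUM -1.17 and DCN 0.47. Of 7 immune markers with a probe set 1 passed, CSF1R, with 101 in miR-31 and 75.9 in control cells (0.35), and all 7 summed to 295 in miR-31 and 232 in control cells. No probe set of either array was at 0, the lowest being 0.109 in the miR-31 array and 0.124 in the control array. Markers below the filter, such as AQP4 with 2.08 in control cells and PDGFRB with 7.57 in miR-31 cells, may be background. The part of these markers in the ratios above was not tested. For RNA integrity, the 3' over the 5' intensity of GAPDH was 1.01 in miR-31 and 0.95 in control cells, and of ACTB 2.17 in miR-31 and 2.39 in control cells.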

How the data were processed

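The deposited data are intensity values on a linear scale for 54675 probe sets on each array. Per the labels' protocols, biotin-labelled cRNA was made from 250 ng of total RNA with a 3' IVT kit. The software, background correction and summarisation that made the deposited intensity values are not given in the sources used here, and without detection calls dim values may be background.

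Gene names came from the supplied platform annotation. Of the probe sets, 41091 carried 1 gene symbol and were used, after leaving out 62 control probe sets, while 1801 carried several and 11777 were unnamed here. All 21 member probe sets kept their symbol when their Entrez identifiers were looked up in RefSeq. The log2 ratio is log2(intensity + 16) in miR-31 cells less the same in control cells. A gene compared is represented by its brightest probe set whose mean level reaches the median over all probe sets. With 1 array a group, no p-value was computed. The calculation was tested on simulated arrays with changes larger than the ratio of every member but ANKRD1. It was a check of the code and does not show how well smaller changes are read.

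The members and gene lists were chosen with earlier results of these data known. Named are all members, of each other list every gene past the filter and 2-fold or otherwise up to 4 genes with the largest absolute ratio, and LATS2. Others named, IGFBP3, ASAP1, THBS1, LATS1, VIM, SLC1A3, S100B, AQP4, PDGFRB, COL3A1, LUM, DCN and CCN3 to CCN6 among them, were chosen after their values were seen. Since a gene has 1 ratio from 2 arrays, no genes were named for a like pattern.

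Alternatives were quantile normalization, centring on the median ratio, on the poly-A controls or on the hybridisation controls, pseudocounts of 1 and 64, loess removal of a level trend (span 0.3), a filter at the 70th percentile or none, averaging the probe sets of a gene, leaving out _s_at and _x_at probe sets, and a threshold of 1.5-fold. Python 3.11.15, numpy 2.4.6, pandas 2.3.3, statsmodels 0.14.6 and matplotlib 3.10.9 were used.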

Additional observations from a re-analysis of the deposited data

How the results depend on the processing

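No paired analysis was possible because the study has 1 miR-31 and 1 control array, which also leaves no array to omit. Centring on the poly-A controls, a shift of -0.55 for every gene, moved the outputs at least 2-fold lower to 6 of 7 and their median to -1.44. It moved the medians of the regulators to -0.58, other reported outputs to -0.82, Hippo kinases and upstream genes to -0.75, other TEAD and VGLL genes to -0.585, family relatives to 0.27 and MRTF-SRF outputs to -0.41. Centring on the hybridisation controls gave 5 outputs past 2-fold, a threshold of 1.5-fold gave 6, and the mean of probe sets gave 2, since AMOTL1 then had -0.85. The median of the family relatives was 0.22 without a level filter and 0.45 with the stricter one, over 11 and 3 genes. Over all genes, the 186 at least 2-fold lower became 1279 centred on poly-A controls, 367 centred on hybridisation controls, 1002 without the filter, 112 with the stricter filter and 793 at 1.5-fold. The other 89 values of list medians and of the output count stayed within 0.336 log2 units or 1.5 times the count. ANKRD1 ran from -2.46 to -1.85 and FJX1 from -1.60 to -1.02 over the alternatives, both past 2-fold in each. Dim probe sets cannot be told from background.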

Other observations

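MRTF and SRF are factors that respond to actin and share CCN1, CCN2 and ANKRD1 with YAP as reported outputs. The list of these factors and other genes they drive did not share 1 direction. Of 15 listed, 11 passed the level filter, 4 lower and 7 higher, with a median of 0.14 and none past 2-fold. The factors themselves, SRF (-0.70), MRTFA (-0.41) and MRTFB (0.17), are in that count. Without these 3, a choice made after seeing the data, 2 of 8 genes were lower and 6 higher, with a median of 0.26. For scale, 46.8% of all genes were lower. Summed over the 11 genes, the level was 28887 in the miR-31 array and 40279 in the control array. TPM1, a tropomyosin, had 9689 in the miR-31 array and 19053 in the control array (-0.97), and its 5 probe sets above the filter lay between -0.97 and -0.39. FHL2, a LIM-domain cofactor, had 4663 in miR-31 and 7653 in control cells (-0.71). On the other side ACTA2, smooth muscle actin, had 406 in miR-31 and 200.02 in control cells (0.97), and TPM2 had 232 in miR-31 and 112 in control cells (0.95). The median turned negative with either spike-in centring (-0.05 with hybridisation and -0.41 with poly-A controls) and with the stricter level filter (-0.18).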
